A study of Mus musculus with 6 samples.

Results

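The 9 genes described here are the fibre-type transcription factors Sox6, Six4, Eya1, Tbx15, Maf, Prox1, Tead1, Mef2a and Mef2d, which set fast or slow programmes in muscle fibres. Their rows were found by gene symbol in a count table of 17034 genes with values, and all 9 members were found. The RNA came from gastrocnemius, a calf muscle of mixed fibre types, in male mice aged 8 weeks. Both groups carried floxed alleles of Thra (Thra fl/fl), which encodes the alpha receptor for thyroid hormone. The group labelled TRa_mKO also carried a Myf5-Cre transgene, which acts from embryonic myogenic cells onward, and the WT littermates carried no Cre. Effects of the transgene itself and of the deletion therefore cannot be told apart. Each genotype was represented by 3 libraries, 1 per mouse.

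Muscle fibres differ in the myosin, calcium pump and metabolic enzymes they hold, and transcription factors keep each set in place. Sox6 represses slow-fibre genes, and Six4 with its coactivator Eya1 turns on fast genes. Tbx15 promotes fast glycolytic fibres, and the large Maf proteins act on the type IIb myosin gene Myh4. Prox1 maintains slow-fibre genes, Tead1 binds the MCAT element of many contractile genes, and Mef2a and Mef2d carry calcium and activity signals to muscle promoters. Thyroid hormone is known to favour the fast programme, and its loss the slow one.

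Several of these factors recognise short sequences, and 4 promoter stretches of fibre genes are shown because they hold such a match. RefSeq (GRCm38.p6) was the source of each stretch, and all lie upstream of the annotated start site. Capitals mark the MEF2 site in the first pair and CATTCC, the TEAD core of the MCAT element, on either strand in the second pair. The Myh4 stretch also holds CATTCC, left in lower case. The first is Casq2, which stores calcium in the sarcoplasmic reticulum of slow fibres (chr3:102086315-102086394, plus strand), and the second is Myh4 (chr11:67237562-67237661, plus strand). The third is Myl3, a slow myosin light chain (chr9:110763498-110763577, plus strand), and the fourth is Myh7, the slow myosin heavy chain (chr14:54994777-54994876, minus strand).
Casq2: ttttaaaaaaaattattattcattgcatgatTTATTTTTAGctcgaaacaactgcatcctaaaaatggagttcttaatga
Myh4: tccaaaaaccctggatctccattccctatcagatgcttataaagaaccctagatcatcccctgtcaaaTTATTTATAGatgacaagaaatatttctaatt
Myl3: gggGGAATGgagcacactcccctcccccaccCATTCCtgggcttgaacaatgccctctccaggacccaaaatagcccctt
Myh7: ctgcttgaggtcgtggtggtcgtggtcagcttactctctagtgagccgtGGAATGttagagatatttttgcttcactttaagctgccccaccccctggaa
A MEF2 site occurred in 3.19% of 32851 promoters of 300 bases, and CATTCC in 14.7%, with both strands searched. The matches describe the letters and do not show binding.

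Library totals lay between 12390527 and 14488500 counts. The targeted gene, Thra, measured 78.8, 92.8 and 96.8 CPM in WT versus 129, 118 and 101 CPM under the label TRa_mKO, where CPM are counts scaled to the normalised library size. It was thus not lower where the label says it was deleted (log2 fold change 0.37, SE 0.12, 95% confidence interval 0.11 to 0.63, edgeR adjusted p = 0.117). The groups did not overlap. Thra had fractional counts, so some of its reads are shared with other features. The sources used here do not give the exons that the floxed allele loses. A count over the whole gene therefore tests neither deletion nor labels, and each direction below rests on the labels. Markers of skeletal muscle fibres summed to 92600 to 121000 CPM in WT versus 114000 to 131000 CPM in TRa_mKO, with 0 of 10 passing edgeR's test (3 had an unadjusted p below 0.05, DESeq2 called 2 and limma-voom 0). Haemoglobin-related transcripts were highest in WT replicate 1 (1760 CPM) and TRa_mKO replicate 3 (1620 CPM), against 458 to 917 CPM elsewhere. Differences in bulk muscle can come from fewer cells of a type or from less RNA per cell, which cannot be told apart.

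The 9 factors spanned a wide range of abundance. Levels between genes are compared here as CPM per kilobase of the longest GENCODE transcript. In WT, Tbx15 led at 53.4 ± 3.64 (SD, n = 3), next to Mef2d at 48.0 ± 3.62, and the WT libraries of these genes overlapped. Mef2a followed at 34.6 ± 2.19. Maf at 24.9 ± 3.91 and Tead1 at 24.0 ± 2.78 did not differ beyond their spread. Sox6 came next at 15.1 ± 0.417, then Eya1 at 8.62 ± 0.0956 and Six4 at 5.70 ± 0.0843. Prox1 was lowest, at 0.698 ± 0.0892. In TRa_mKO the order at the top was Mef2d at 54.5 ± 3.60, then Tbx15 at 49.0 ± 8.10, again with overlapping libraries, and Prox1 remained last at 1.45 ± 0.166.

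Prox1 was the single factor of the 9 that passed the comparison of genotypes, and it rose about 2-fold in TRa_mKO. Across the table, edgeR's quasi-likelihood test with Benjamini-Hochberg adjustment called 547 of 13118 genes (4.17%), 2.52% higher and 1.65% lower, against 1 of 9 here. The other 8 did not pass, with log2 fold changes between -0.12 and 0.30, and 5 of the 9 had a log2 fold change above 0, as did 50% of all genes. The median log2 fold change was 0.18 over the 9 factors and 0 over all genes tested. Groups did not overlap for Prox1, Six4 and Tead1, each higher in TRa_mKO, and 23.2% of all genes had groups apart in either direction (13.2% higher, 10.1% lower). The same 3 genes had an unadjusted p below 0.05, as did 17.9% of all genes.

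**Figure D1:**
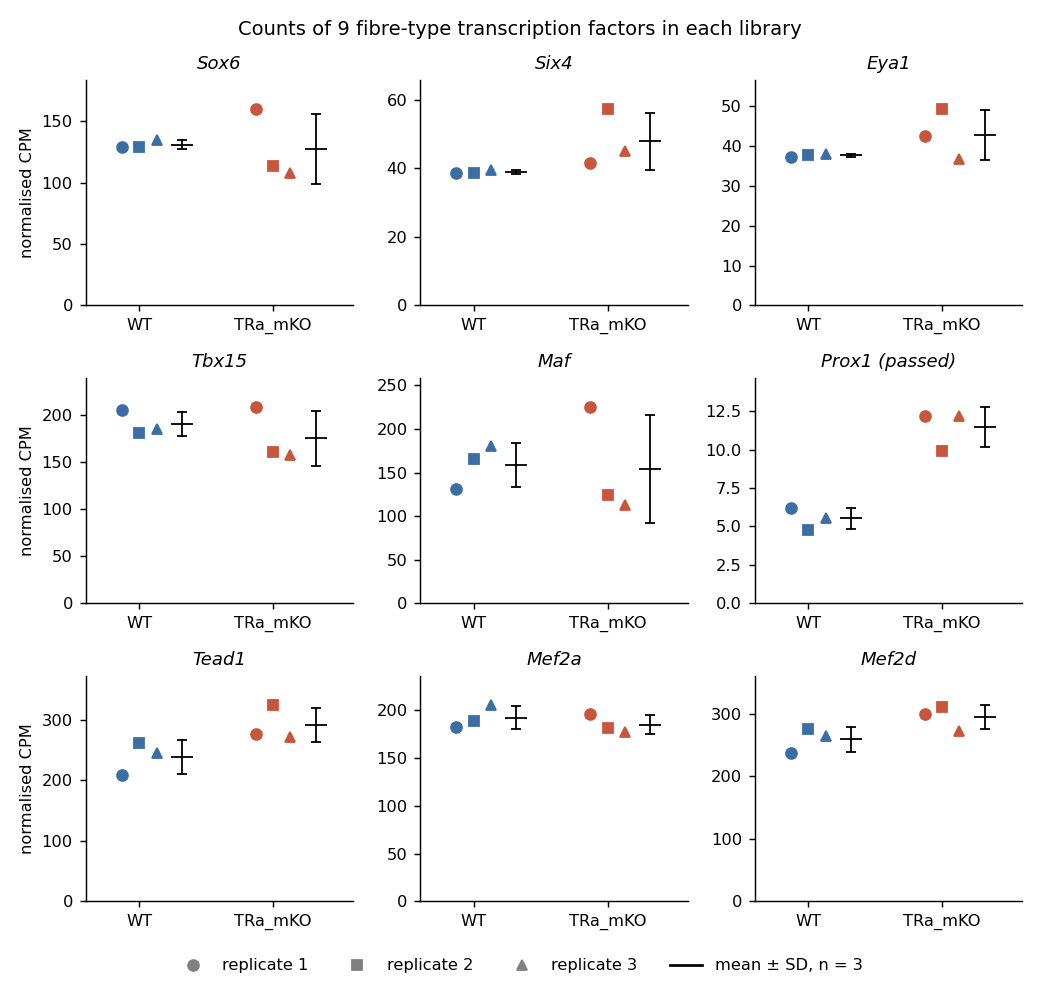
Normalised CPM (y axis, from 0) of the 9 factors in each of 3 WT and 3 TRa_mKO libraries, with marker shape for the replicate number and bars for mean ± SD. Prox1 lies at 4.80 to 6.21 CPM in WT versus 9.93 to 12.2 CPM in TRa_mKO, whereas Sox6, Tbx15, Maf, Eya1, Mef2a and Mef2d overlap between genotypes.

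Prox1 is a homeobox factor that keeps up the slow programme, and it is also a defining gene of lymphatic endothelium and is active in satellite cells, the stem cells of muscle. Prox1 (gene ID 19130) measured 6.21, 4.80 and 5.55 CPM in WT versus 12.2, 9.93 and 12.2 CPM in TRa_mKO. Each TRa_mKO library was above each WT library. These levels rest on 83, 62 and 84 counts in WT versus 166, 123 and 177 in TRa_mKO. The mean was 5.52 ± 0.706 CPM against 11.4 ± 1.31 CPM (n = 3 each), a 2.07-fold difference (log2 fold change 1.05, SE 0.15, 95% confidence interval 0.71 to 1.39). It passed edgeR's test with an adjusted p = 0.00486 and ranked 108 among the called genes by adjusted p. The call held under all 16 other fits, with log2 fold changes of 0.96 to 1.13 and adjusted p of 3.04e-05 to 0.0312. The antisense gene Prox1os overlaps its exons on the other strand, and without a stated strand setting of the counting, reads of the pair cannot be told apart.

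The promoter of Prox1 is shown because this factor carried the difference. It covers 250 bases before the most upstream annotated start (chr1:190170828-190171077, minus strand, GRCm38.p6).
Prox1: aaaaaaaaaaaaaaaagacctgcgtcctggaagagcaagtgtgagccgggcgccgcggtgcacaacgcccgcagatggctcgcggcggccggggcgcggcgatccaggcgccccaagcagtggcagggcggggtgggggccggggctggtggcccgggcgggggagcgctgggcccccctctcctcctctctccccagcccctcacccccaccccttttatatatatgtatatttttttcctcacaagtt
The stretch is 64.8% G or C. On either strand of both annotated Prox1 promoters, 0 matches were found to AGGTCA (the half-site of thyroid hormone receptors), to CATTCC, to the MEF2 site, to the Maf half-site TGCTGA or to the SOX core ACAAT. These occurred in 16.3%, 14.7%, 3.19%, 19.5% and 31.0% of all promoters, in that order. A window of this length says nothing of more distant sites.

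Since Prox1 also marks other cells, those cells' markers are given beside it. Of 6 lymphatic endothelial markers, 0 rose and 1 fell by each of edgeR, DESeq2 and limma-voom. At an unadjusted p below 0.05, 0 were higher and 2 lower. The median log2 fold change of the 6 was -0.36. Their sum was 50.0 to 67.3 CPM in WT versus 41.5 to 57.3 CPM in TRa_mKO. Flt4, the receptor of lymphatic growth factors, fell from 16.5 ± 1.73 to 10.7 ± 0.936 CPM (adjusted p = 0.0221), a call that ended without WT replicate 1 or 2, without TRa_mKO replicate 1 or 2, and without both haemoglobin-rich libraries (adjusted p = 0.0507 to 0.0999). In total, 6 of the 16 other fits lost the Flt4 call. Lyve1, a hyaluronan receptor of lymphatic vessels, measured 8.16, 3.95 and 8.45 CPM in WT versus 4.54, 4.36 and 6.23 CPM in TRa_mKO. No marker of the list was at 0. The lowest was Mmrn1, at a mean of 3.04 CPM. Lower values were not particular to lymphatic markers. The 8 markers of blood endothelium had a median log2 fold change of -0.32, with 7 below 0 and 1 above. Of these, 0 were called by edgeR, and 4 were lower and 0 higher at an unadjusted p below 0.05. The part of lymphatic cells in the Prox1 counts was not tested.

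Satellite cell markers summed to 50.5 to 58.1 CPM in WT versus 63.6 to 68.4 CPM in TRa_mKO. Of 6, 1 rose and 0 fell by edgeR, where 2.52% of all genes were called higher. Groups were apart for 3 (Pax7, Myf5 and Calcr), all higher in TRa_mKO, as for 13.2% of all genes, while Cdh15, Vcam1 and Chrdl2 overlapped. Only TRa_mKO carried Myf5-Cre, and an effect of the transgene on Myf5 was not tested. At an unadjusted p below 0.05, 3 of the 6 markers were higher and 0 lower, and DESeq2 called 2 and limma-voom 1. All 6 had a log2 fold change above 0. Pax7, which specifies satellite cells, measured 6.36, 7.82 and 6.34 CPM in WT versus 11.1, 10.4 and 10.8 CPM in TRa_mKO (log2 fold change 0.66, SE 0.14, adjusted p = 0.0261). Pax7 still passed without WT replicate 2, but omitting each of the other libraries ended its call (adjusted p = 0.0527 to 0.0916), as did a fit without both haemoglobin-rich libraries (adjusted p = 0.168). In total, 7 of the 16 other fits lost the Pax7 call. The part of satellite cells in the rise of Prox1 was not tested.

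Tead1 and its partners came next among factors of the slow programme. Tead1 (gene ID 21676) measured 208, 262 and 245 CPM in WT versus 277, 324 and 272 CPM in TRa_mKO. The groups did not overlap, but the test missed the threshold (log2 fold change 0.29, SE 0.12, 95% confidence interval 0.02 to 0.55, adjusted p = 0.236). Of 13 tested relatives and cofactors of TEAD proteins, 1 rose and 0 fell by edgeR, DESeq2 and limma-voom alike. At an unadjusted p below 0.05, 3 were higher and 1 was lower, and the median was 0.05. The riser was Vgll2, a muscle-enriched cofactor that binds TEAD proteins. It measured 32.6, 27.8 and 27.1 CPM in WT versus 48.7, 57.3 and 68.2 CPM in TRa_mKO, with no overlap, a 1.99-fold rise (SE 0.13 in log2 fold change, adjusted p = 0.00282). Yap1, Wwtr1, Tead2, Tead3 and Tead4 did not pass, and Tead3 came closest (13.2, 13.4 and 11.6 CPM in WT against 16.9, 19.0 and 15.5 CPM in TRa_mKO, adjusted p = 0.081).

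Mef2a and Mef2d, which share a DNA-binding domain and bind the same site, did not pass. Mef2a (gene ID 17258) measured 182, 188 and 205 CPM in WT versus 196, 181 and 177 CPM in TRa_mKO. The log2 fold change of -0.05 had a 95% confidence interval of -0.26 to 0.16 (SE 0.09, adjusted p = 0.843). Its libraries overlapped between genotypes. Lysmd4 overlaps its exons on the other strand, at 17.4 to 21.8 CPM. Mef2d (gene ID 17261) measured 238, 276 and 264 CPM in WT versus 300, 311 and 273 CPM in TRa_mKO, with overlap between WT replicate 2 and TRa_mKO replicate 3. Its log2 fold change was 0.18 (SE 0.10, 95% confidence interval -0.04 to 0.41, adjusted p = 0.387).

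The balance of this pair was compared within each library, where depth cancels. The ratio of Mef2a to Mef2d counts was 0.76, 0.68 and 0.78 in WT and 0.65, 0.58 and 0.65 in TRa_mKO. All WT ratios were above all TRa_mKO ratios. The log2 ratio was -0.44 ± 0.10 in WT and -0.67 ± 0.09 in TRa_mKO, and a two-sided exact permutation test over 3 against 3 libraries gave p = 0.1, the smallest it allows, so this design cannot reach 0.05 with that test.

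Among 17 tested relatives and regulators of MEF2, 1 rose and 1 fell, with a median of -0.03. Hdac9, a class IIa deacetylase that represses MEF2 factors, measured 15.7, 16.5 and 21.3 CPM in WT versus 28.0, 27.0 and 26.7 CPM in TRa_mKO, with no overlap (log2 fold change 0.61, SE 0.12, adjusted p = 0.0221). Its call ended without WT replicate 1 or 2, without TRa_mKO replicate 2, and without both haemoglobin-rich libraries (adjusted p = 0.0739, 0.0737, 0.0862 and 0.121), and with library size as the only scaling (adjusted p = 0.0569). Carm1, an arginine methyltransferase and coactivator of muscle genes, fell from 67.0, 85.4 and 75.5 CPM to 51.9, 50.0 and 45.3 CPM (log2 fold change -0.63, SE 0.11, adjusted p = 0.00994). Carm1 had fractional counts, so some of its reads are shared with other features. Mef2c, another MEF2 factor of muscle, measured 507 ± 55.0 CPM in WT versus 466 ± 80.9 CPM in TRa_mKO (adjusted p = 0.721, shared reads).

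**Figure D2:**
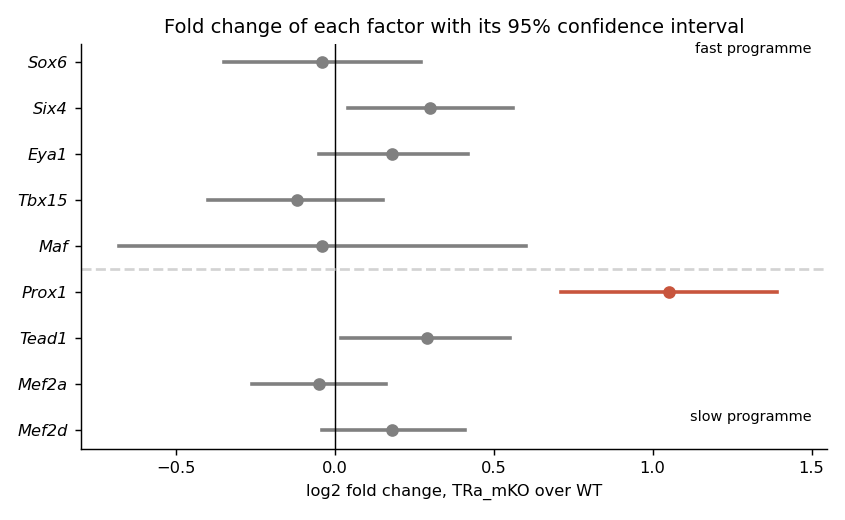
Log2 fold change of TRa_mKO over WT (x axis) for each factor, with points for the estimate and bars for the 95% confidence interval; the dashed line parts fast-programme from slow-programme factors. Prox1, in red, is the one that passed, at 1.05 (0.71 to 1.39), and Maf has the widest interval, -0.68 to 0.60.

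Factors of the fast programme did not pass in either direction. Of the 5, 1 (Six4) had an unadjusted p below 0.05, and DESeq2 and limma-voom called none. Sox6 (gene ID 20679), the repressor of slow genes, measured 129, 129 and 135 CPM in WT versus 160, 114 and 108 CPM in TRa_mKO. The 3 WT libraries were close together, and the TRa_mKO libraries lay on both sides of them. The log2 fold change was -0.04 (SE 0.14, 95% confidence interval -0.35 to 0.27, adjusted p = 0.926). Sox6 had a fractional count in 1 library, TRa_mKO replicate 3.

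Six4 (gene ID 20474), a homeobox factor of fast genes, measured 38.5, 38.6 and 39.5 CPM in WT versus 41.4, 57.2 and 45.0 CPM in TRa_mKO. Its groups did not overlap, yet its edgeR test missed the threshold (log2 fold change 0.30, SE 0.12, 95% confidence interval 0.04 to 0.56, adjusted p = 0.203). TRa_mKO replicate 2 was the highest library, and without it the log2 fold change was 0.14. Eya1 (gene ID 14048), the coactivator and phosphatase that works with Six4 and its relatives, measured 37.2, 37.7 and 38.0 CPM in WT versus 42.4, 49.2 and 36.7 CPM in TRa_mKO. The same library was again the highest, the groups overlapped, and the log2 fold change was 0.18 (SE 0.11, 95% confidence interval -0.05 to 0.42, adjusted p = 0.409). Without it the log2 fold change of Eya1 was 0.06.

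Of 8 relatives of Six4 and Eya1, 0 rose and 1 fell, with a median of 0.07. No member was higher at an unadjusted p below 0.05 or by DESeq2 or limma-voom. The one that fell was Dach1, a corepressor that can act with proteins of this family, at 36.2, 34.8 and 34.3 CPM in WT versus 26.1, 26.3 and 29.4 CPM in TRa_mKO. Its groups did not overlap (log2 fold change -0.36, SE 0.09, adjusted p = 0.0457). Dach1 still passed without TRa_mKO replicate 3, but omitting each of the other libraries ended its call (adjusted p = 0.0897 to 0.174). It did not pass in DESeq2, with library size only or without both haemoglobin-rich libraries (adjusted p = 0.064, 0.0551 and 0.118). In total, 9 of the 16 other fits lost the Dach1 call.

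Tbx15 (gene ID 21384), a T-box factor of glycolytic fibres, measured 205, 181 and 185 CPM in WT versus 208, 160 and 157 CPM in TRa_mKO. TRa_mKO replicate 1 lay at the level of the highest WT library and the other TRa_mKO libraries lay below all of WT. The log2 fold change was -0.12 (SE 0.12, 95% confidence interval -0.40 to 0.15, adjusted p = 0.67). Of 6 tested SoxD and T-box relatives 0 passed by edgeR, 5 of 6 had a log2 fold change below 0, and 3 had an unadjusted p below 0.05, while DESeq2 and limma-voom called none. Among these, Tbx3 measured 16.4, 16.2 and 16.0 CPM in WT versus 12.5, 12.3 and 13.3 CPM in TRa_mKO (adjusted p = 0.0883), and Tbx1 8.25 ± 1.76 and 5.19 ± 1.41 CPM (adjusted p = 0.145).

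Maf (gene ID 17132), a large Maf protein, varied most. It measured 131, 165 and 180 CPM in WT versus 225, 124 and 113 CPM in TRa_mKO, so the highest and the lowest of the 6 libraries were both TRa_mKO. The coefficient of variation was 15.7% in WT and 40.2% in TRa_mKO, against 5.42% to 22.4% in TRa_mKO for the other 8 factors. The log2 fold change was -0.04, with a 95% confidence interval of -0.68 to 0.60 (SE 0.27, edgeR adjusted p = 0.96). As folds of TRa_mKO over WT, that interval runs from 0.623 to 1.51. Of 8 tested Maf relatives, 0 passed and 0 had an unadjusted p below 0.05, and DESeq2 and limma-voom called none. Mafa measured 52.4, 52.1 and 52.2 CPM in WT versus 68.1, 53.5 and 46.6 CPM in TRa_mKO, and TRa_mKO replicate 1 was the highest library, as for Maf.

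Maf is also expressed by macrophages. Macrophage markers summed to 59.6 to 88.8 CPM in WT versus 56.8 to 89.0 CPM in TRa_mKO, with 0 of 8 passing by edgeR, DESeq2 or limma-voom and 0 with an unadjusted p below 0.05. In TRa_mKO replicate 1, where Maf was highest, that sum was the lowest of the 6 libraries, at 56.8 CPM.

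TRa_mKO replicate 1 stood above the other TRa_mKO libraries for Sox6, Tbx15, Maf and Mef2a. With it left out, the log2 fold change was -0.24 for Sox6 (adjusted p = 0.183), -0.27 for Tbx15 (adjusted p = 0.191) and -0.42 for Maf (adjusted p = 0.135) in edgeR, all further from 0 and none passing. Prox1 without it was 1.01 (adjusted p = 0.0136).

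**Figure D3:**
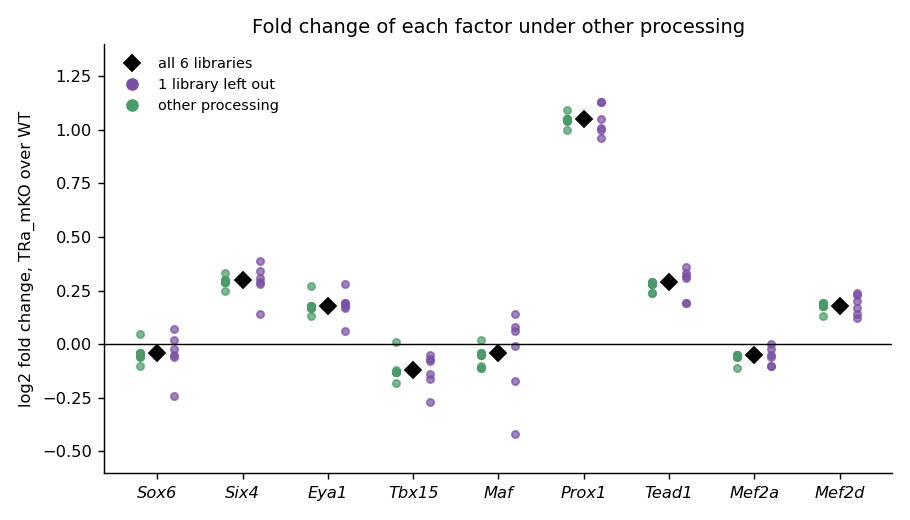
Log2 fold change of TRa_mKO over WT (y axis) for each factor with all 6 libraries (black diamonds), with 1 library left out (purple) and under other processing (green). Prox1 stays between 0.96 and 1.13 in all fits, and Maf moves from -0.42 to 0.14 as libraries are left out.

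The genes that these factors act on were described from lists of fibre genes. Of 17 slow-fibre genes, 5 rose and 1 fell by edgeR, where 2.52% of all genes were called higher and 1.65% lower. The median log2 fold change was 1.27. At an unadjusted p below 0.05, 14 were higher and 1 was lower, against 17.9% of all genes in either direction. Groups were apart for 11 higher and 1 lower, against 13.2% and 10.1% of all genes. Summed, the list reached 9380, 5870 and 5710 CPM in WT versus 11300, 11700 and 15000 CPM in TRa_mKO, with no overlap. Within each genotype, haemoglobin-related transcripts ranked the libraries in the same order (1760, 590 and 458 CPM in WT, 710, 917 and 1620 CPM in TRa_mKO). The source of this shared order, and its part in the rise of slow genes, was not tested. Casq2 measured 50.7, 41.9 and 49.7 CPM in WT versus 99.4, 121 and 123 CPM in TRa_mKO (log2 fold change 1.27, SE 0.11, adjusted p = 0.000446). Atp2a2, the slow calcium pump, Myl3 and the Z-disc gene Myoz2 also rose, by 1.39, 1.57 and 1.02 in log2 fold change (adjusted p = 0.0292, 0.0308 and 0.0175). The call of Atp2a2 ended without WT replicate 3 or any TRa_mKO library (adjusted p = 0.0556 to 0.0965), and that of Myl3 without WT replicate 2 or any TRa_mKO library (adjusted p = 0.0571 to 0.1). Myoz2 lost its call if replicate 2 of either genotype was omitted (adjusted p = 0.0578 for WT and 0.0619 for TRa_mKO). Over all 16 other fits, Atp2a2, Myl3 and Myoz2 lost their calls in 6, 7 and 3. Of the called slow genes outside the naming rule, named after their values were seen, Myl2, the slow regulatory light chain, rose by 1.85 and the stretch-responsive Ankrd2 fell by 1.59 on the log2 scale (edgeR adjusted p = 0.0375 and 0.0457). Myl2 passed without WT replicate 1 and Ankrd2 without WT replicate 3, and neither did with another library left out (adjusted p = 0.0556 to 0.129). Over all 16 other fits, Myl2 lost its call in 8 and Ankrd2 in 9. Myh7 measured 509, 137 and 183 CPM in WT versus 965, 882 and 1390 CPM in TRa_mKO, with shared reads and an adjusted p = 0.155. The count of slow genes called was 10 without WT replicate 1, whose slow-fibre sum was the highest in WT, 2 without WT replicate 2, and 3, 1 and 2 without TRa_mKO replicates 1, 2 and 3. Casq2 passed in each of these fits, and Myh7 passed without WT replicate 1 (adjusted p = 0.00122).

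Of 21 fast-fibre genes, 1 rose and 0 fell, with a median of 0.12. No fast gene fell by edgeR, DESeq2 or limma-voom, 0 were lower at an unadjusted p below 0.05, and 3 were higher. The riser was Myh2, the fast oxidative myosin heavy chain, at 1790, 1420 and 1130 CPM in WT versus 2410, 2390 and 2390 CPM in TRa_mKO (adjusted p = 0.0352, shared reads). It passed without WT replicate 1 and not when another library was left out (adjusted p = 0.0615 to 0.137). In total, 6 other fits lost the Myh2 call. Myh4, the target of the large Maf proteins, measured 19300, 27700 and 16600 CPM in WT versus 21300, 17100 and 17100 CPM in TRa_mKO (adjusted p = 0.675, shared reads). Of 8 genes of type IIb fibres, all but Ampd1 also among the fast-fibre genes above, 0 passed by edgeR. At an unadjusted p below 0.05, 2 of these were higher and 0 lower, and DESeq2 and limma-voom called none. Of 6 developmental sarcomere genes, 3 rose and 0 fell, namely the embryonic and perinatal myosin heavy chains Myh3 and Myh8 and the light chain Myl4, by 3.59, 3.24 and 0.83 in log2 fold change (edgeR adjusted p = 9.02e-06, 0.000346 and 0.00875). Myh8 had shared reads. Myl4 did not pass without both haemoglobin-rich libraries (adjusted p = 0.0845). Of 21 other regulators of fibre type, 0 passed by edgeR, with a median of -0.04, while DESeq2 called 4 and limma-voom 1. An unadjusted p below 0.05 was found for 8 of the 21 (5 higher, 3 lower), against 17.9% of all genes. Groups were apart for 5 higher and 3 lower.

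**Figure D4:**
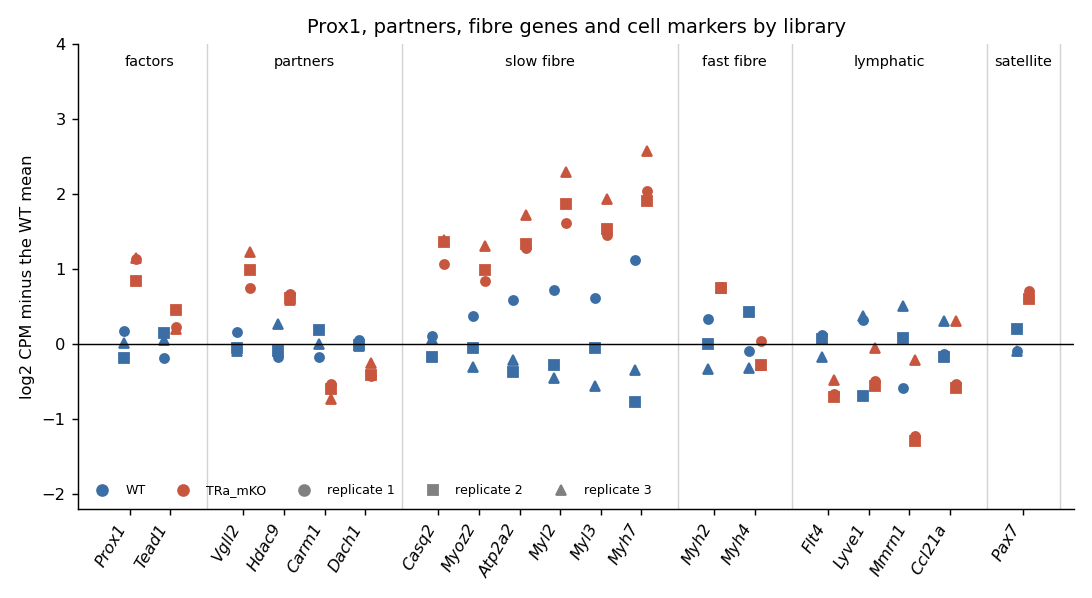
Log2 CPM minus the WT mean (y axis) of Prox1, Tead1, partner genes, fibre genes and cell markers, with blue points for WT, red for TRa_mKO and marker shape for the replicate number. Prox1, Tead1, Vgll2, Hdac9, Pax7, Myh2 and the slow genes from Casq2 to Myh7 lie higher in all TRa_mKO libraries, though Tead1 and Myh7 did not pass. Carm1, Dach1 and Flt4 lie lower, and Myh4, Lyve1, Mmrn1 and Ccl21a overlap.

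Promoter tables held 5 of the 9 factors. Sox6 had 6 annotated promoters, of which 1 held a MEF2 site and 2 held AGGTCA. The single Mef2a promoter held a MEF2 site that spans its own start. The promoters of Six4 held 0 matches to the 5 motifs, and that of Mef2d held TGCTGA alone. Of the slow genes that rose, 4 were in these tables. Casq2 and Myoz2 each held a MEF2 site and Myl3 held CATTCC, which is present on both strands of the stretch printed above. The 2 promoters of Myl2 held 0 matches to either, and 1 of them held AGGTCA. Among fast genes, Myh4 held both a MEF2 site and CATTCC, and Myh2 held neither.

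The genes whose levels followed Prox1 most closely over the 6 libraries were Btbd8, Tm6sf1 and Hadha, with Pearson r of 0.995, 0.994 and 0.994 of log2 CPM. Hadha, a subunit of the mitochondrial trifunctional protein of fatty acid oxidation, measured 254, 215 and 239 CPM in WT versus 373, 312 and 361 CPM in TRa_mKO. Of 11963 genes compared, 361 (3.02%) had r over 0.9 with Prox1. The libraries form 2 genotypes, so a gene that differs between them correlates with Prox1 for that alone, and r is given as a description.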

How the data were processed

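Polyadenylated RNA of gastrocnemius was sequenced in 6 libraries, 3 WT and 3 TRa_mKO, 1 per mouse. The authors deposited estimated counts per gene, not normalized, which the file headers call read counts. Tools in the submitters' processing notes are Trimmomatic 0.39, FastQC 0.11.9, featureCounts and MultiQC 1.12. The builds there are GRCm39, GRCm38.p6 and mm10, none with a stated role. Aligner, annotation and strand setting were not given in the sources used here. Libraries were stranded, per the labels' protocols. Between 9.65% and 10% of values were not whole, and such genes are said to share reads. Values were rounded, filtered with filterByExpr (minimum count 10), scaled by TMM factors and compared between genotypes with edgeR 4.0.16 in R 4.3.3, by its quasi-likelihood test (two-sided). Adjusted p below 0.05 over 13118 genes counted as called, and CPM are TMM-normalised. Promoters, 250 bases before to 50 after a start, were searched with Python 3.11.15.

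The members and lists were chosen with earlier results of these data known. The rule for named genes takes all 9 factors, up to 4 called members of each list by smallest p, Myh7 and Myh4, and the 3 genes most correlated with a called factor (mean log2 CPM at least 1). Lists were described by counts and medians, with no set test. Alternatives were DESeq2 size factors, library size only, no filter, 1 CPM in 3 libraries, DESeq2 1.42.0, limma-voom (limma 3.58.1), a block for the replicate number, each library left out, both haemoglobin-rich libraries left out, genes with shared reads left out, the 10 most abundant genes left out, and thresholds of 0.1 and 0.01. The edgeR step was tested on simulated counts. Marker lists of blood endothelium, connective tissue, adipocytes, Schwann cells and tendon had 8, 8, 5, 7 and 5 members tested and 0 called by edgeR or limma-voom; 4, 1, 0, 1 and 1 had an unadjusted p below 0.05, and DESeq2 called 1, 1, 0, 0 and 1.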

Additional observations from a re-analysis of the deposited data

How the results depend on the processing

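One of 9 factors, Prox1, was called in all 16 other fits and at thresholds of 0.1 and 0.01, and the other 8 passed in none of these. For values near 0 the sign moved. Sox6 was 0.02 without TRa_mKO replicate 2, 0.07 without TRa_mKO replicate 3 (range -0.24 to 0.07 with 1 library left out) and 0.05 without the haemoglobin-rich libraries. Maf was 0.06, 0.08 and 0.14 without WT replicate 3, TRa_mKO replicate 2 and TRa_mKO replicate 3 (range -0.42 to 0.14), and 0.02 without the haemoglobin-rich libraries. Tbx15 was 0.01 without those, and Mef2a 0 without WT replicate 3 (range -0.1 to 0). Myh4 was 0.04 without WT replicate 2 (range -0.35 to 0.04 with 1 library left out). The cause was not tested.

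Genes called over the table numbered 357 with the replicate block, 267 without the haemoglobin-rich libraries, 934 and 173 at thresholds of 0.1 and 0.01, and 209 to 595 with 1 library left out, the lowest without TRa_mKO replicate 2; it was 361 without WT replicate 2 and 310 without WT replicate 3. With library size only, 45.5% in place of 60.5% of calls were upward. Deviations of same-numbered libraries from their group means correlated at -0.18, 0 and -0.01, so no pairing by replicate number was seen. With 3 libraries per genotype that check cannot exclude pairing. With the block, Prox1 was 1.05 (edgeR adjusted p = 0.00979).

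Slow-fibre genes called numbered 2 with library size only, no filter or the replicate block, 11 with DESeq2 or limma-voom, 10 without the haemoglobin-rich libraries and 1 to 10 with 1 library left out. Fast-fibre genes numbered 2 with DESeq2, 0 with the block or without shared reads, and 0 to 2 with 1 library left out. Relatives of Six4 and Eya1 numbered 0 with library size only, DESeq2, the block or without the haemoglobin-rich libraries, and 0 to 1 with 1 library left out. MEF2 relatives numbered 1 with library size only, without the haemoglobin-rich libraries or without shared reads, and 1 to 2 with 1 library left out. SoxD and T-box relatives numbered 1 without the haemoglobin-rich libraries. Other regulators numbered 1 with no filter, 4 with DESeq2, 1 with limma-voom, 2 without the haemoglobin-rich libraries and 0 to 2 with 1 library left out. Developmental sarcomere genes (3 higher of 6 tested) numbered 5 with DESeq2 or limma-voom. At 62 to 177 counts, Prox1 is the least precisely counted factor.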
